A study of Mus musculus with 16 samples.

Results

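The aryl hydrocarbon receptor and hypoxia factor genes described here are 9 members of the 46078 genes counted: Ahr, Arnt, Tiparp, Hif1a, Epas1, Vhl, Egln1, Egln2 and Hif1an. They were taken by symbol, and the group was selected because Ahr had no read in the haematopoietic stem cells (HSCs) of wild-type (WT) endosteal bone marrow (BM). The Ahr counts of those libraries, and every comparison that contains them, are therefore given as a description with no test. Each library was made with Smart-seq2, a full-length cDNA protocol for small cell numbers, from a pool of 30 sorted viable LSK CD48-CD150+ cells of untreated C57/Bl6 mice whose age the labels do not state. Long bones were flushed for the central BM, and the flushed bones were then crushed for the endosteal BM. The mice were WT or Gfra2-/-, which lack throughout the body the GFRα2 receptor that cholinergic neurons need to survive, so the HSCs and their niche carried the same genotype. Of 16 labelled samples, 15 libraries were analysed, with n = 4 for WT endosteal, n = 4 for WT central, n = 4 for Gfra2-/- endosteal and n = 3 for Gfra2-/- central BM. No label says whether the pools of one group came from different mice, although the study's figure legend calls them biological replicates (N = 4). The study's methods give 4 replicates per sample for library preparation and 3 per condition for sequencing, without naming mice. The p-values measure the spread between pools, which may be partly technical. Libraries carry letters that only name them within their group.

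The AHR protein is a ligand-activated transcription factor of the bHLH-PAS family. After binding dioxin-like compounds, tryptophan metabolites or microbial products it leaves a chaperone complex, enters the nucleus and pairs with ARNT on xenobiotic response elements. The hypoxia-inducible factors pair an oxygen-regulated alpha subunit, HIF1A or EPAS1 (also called HIF-2α), with the same ARNT. In oxygenated cells the prolyl hydroxylases EGLN1 and EGLN2 mark the alpha subunit for VHL, the recognition subunit of a ubiquitin ligase, while the asparaginyl hydroxylase HIF1AN blocks its contact with coactivators. TIPARP is an ADP-ribosyltransferase that AHR induces and that in turn represses AHR. Both pathways are studied in HSCs because AHR antagonists expand human progenitors in culture and because HIF-1α supports the quiescent, glycolytic state of HSCs in the hypoxic marrow. Since the hydroxylases and VHL act on protein, mRNA counts do not measure HIF activity.

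Genes are placed by GENCODE M21 on mouse build GRCm38. Ahr lies at chr12:35497974-35535038 on the minus strand and Hif1a on the same chromosome at chr12:73901375-73947530 on the plus strand. Tiparp (chr3:65528410-65555518) and Arnt (chr3:95434388-95497240) share chromosome 3, both on the plus strand. Epas1 is at chr17:86753700-86833410, Vhl at chr6:113623959-113631633 and Hif1an at chr19:44562850-44576274, all on the plus strand. Egln1 (chr8:124908587-124949324) and Egln2 (chr7:27158658-27166802) are on the minus strand. Reads were counted without strand over exons, so reads of the 223 exonic bases that Tiparp shares with the antisense transcript 4931440P22Rik, and of the 330 bases that Hif1a shares with Gm15283, could not be assigned to either gene.

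RefSeq promoter windows, from 250 bases before to 50 bases after a start site in GRCm38.p6, were given for 7 of the 9 members, with 2 for Egln2. Ahr and Epas1 had none. The windows were searched on both strands for the core that AHR and ARNT recognise, GCGTG, for the hypoxia response core, ACGTG, and for the longer form TNGCGTG, which contains the first core. These cores were found in 32.4%, 19.6% and 5.07%, respectively, of all 32851 windows of the same length. The windows of Tiparp, the AHR feedback gene, and of Egln2, the member with the highest level per length, are shown because Tiparp had 3 counts or fewer in 4 of 15 libraries while Egln2 varied the least of the 9 members. Capitals mark the matches.
Tiparp, chr3:65528197-65528496, plus strand: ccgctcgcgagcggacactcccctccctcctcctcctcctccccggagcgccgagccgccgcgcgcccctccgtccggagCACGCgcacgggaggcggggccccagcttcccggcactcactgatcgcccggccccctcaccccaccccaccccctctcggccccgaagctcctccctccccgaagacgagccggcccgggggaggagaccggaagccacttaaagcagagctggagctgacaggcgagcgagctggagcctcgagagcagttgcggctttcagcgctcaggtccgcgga
Egln2, chr7:27166753-27167052, minus strand: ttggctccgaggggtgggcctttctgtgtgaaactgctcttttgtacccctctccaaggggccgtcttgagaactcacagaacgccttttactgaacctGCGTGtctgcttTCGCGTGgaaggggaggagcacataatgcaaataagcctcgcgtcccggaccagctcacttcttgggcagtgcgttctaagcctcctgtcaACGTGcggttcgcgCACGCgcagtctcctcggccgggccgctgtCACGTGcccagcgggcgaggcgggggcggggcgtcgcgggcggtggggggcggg
The Tiparp window held 1 GCGTG core, on the opposite strand and 170 bases before the start site, and no ACGTG. The Egln2 window held 3 GCGTG cores, 1 of them within a TNGCGTG, and 3 ACGTG cores. The last pair of ACGTG matches in Egln2 is the palindrome CACGTG read from both strands, which is also the E-box letters of other bHLH factors. Egln1, an oxygen sensor that HIF itself induces, had 1 match of each core, and Hif1a had 3 ACGTG matches, of which 2 are again a CACGTG. Arnt had 1 GCGTG, the second Egln2 window had 1, and Vhl and Hif1an had neither core. The members' windows held 55.3% to 86.0% G and C apart from the second Egln2 window at 49.3%, against a median of 52.7% over all windows. These matches are letters in a window and carry no information on binding in HSCs.

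**Figure D1:**
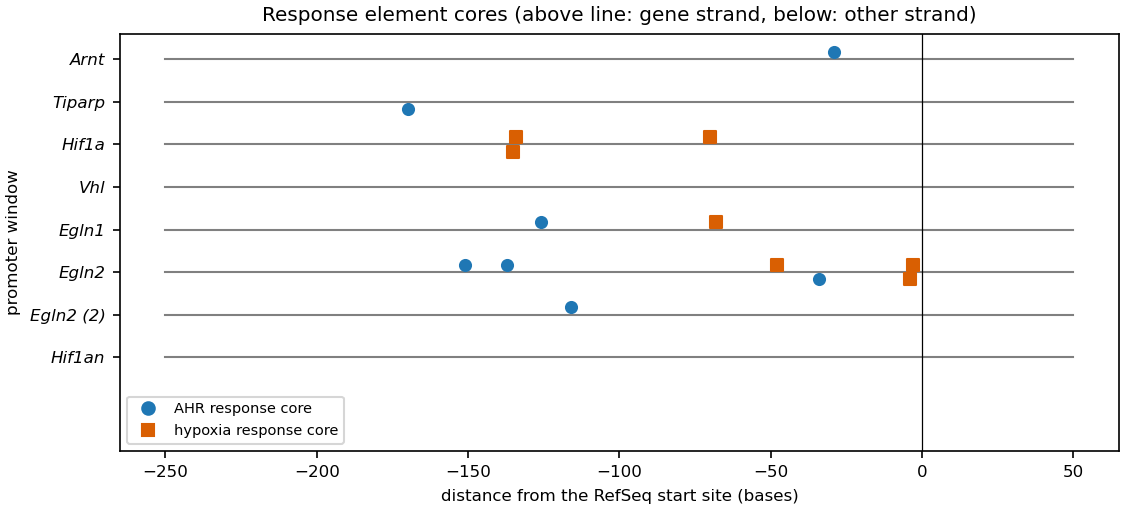
Positions of response element cores in the 8 RefSeq promoter windows, as distance from the start site in bases (horizontal axis), one line per window. Circles are GCGTG cores and squares ACGTG cores, above the line on the gene's strand and below it on the other. Egln2 carries matches of both cores and Vhl and Hif1an carry none.

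Reads on genes ranged from 826487 to 18550008 per library, and the WT central libraries were the shallowest (826487 to 3367289), which limits every comparison with them. In 4 libraries, 1 in each group (WT endosteal D, WT central D, Gfra2-/- endosteal D and Gfra2-/- central C), spike-in RNAs made up less than 0.5% of the reads, and in the other 11 more. Gfra2, the deleted gene, had 2, 47, 1 and 9 counts in the endosteal libraries labelled Gfra2-/- (A to D), against 0 to 4 in WT libraries. The counts of B and D, 5 or more each, are unexpected for their label. Since WT libraries held almost no Gfra2 reads either, these reads do not tell the genotypes apart here. Results that rest on libraries B and D are also given without them. The sort was checked against its markers. Kit was between 491 and 993 counts per 1000000 reads (CPM) in all libraries, the HSC genes Hlf and Mecom were detected in each, and Cd48 did not exceed 17.4 CPM.

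Per length of exon the 9 genes spanned a wide range of levels. Egln2 had the highest mean over 15 libraries, at 47.0 ± 15.9 CPM per kb (SD, n = 15), followed by Vhl at 19.2 ± 19.1, Hif1a at 16.7 ± 9.67, Hif1an at 7.70 ± 5.47 and Arnt at 5.61 ± 2.11 CPM per kb. Egln1 followed at 4.64 ± 2.38, Tiparp at 4.47 ± 4.14, Ahr at 1.88 ± 2.87 and Epas1 at 1.4 ± 3.0 CPM per kb. Egln2 was first in each of the 4 groups. Within each group's own order most neighbours overlapped in their libraries. The exceptions were Egln2 over Vhl in Gfra2-/- central BM and the last 2 genes of WT central BM, where every Arnt value lay above every Epas1 value. Hif1a, the HIF alpha subunit read in every library, exceeded Epas1 per length in every group by its mean, whereas Epas1 had 3 counts or fewer in 9 of 15 libraries.

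**Figure D2:**
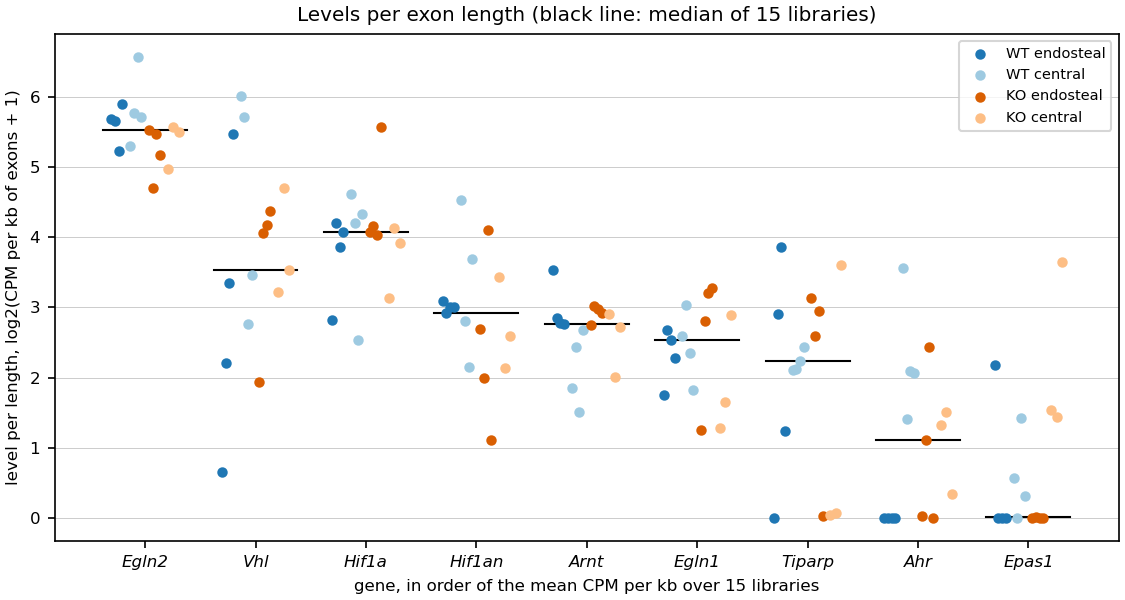
Level of each gene per kilobase of exon, as log2(CPM per kb + 1) (vertical axis), with genes in order of their mean (horizontal axis). Each point is a library, coloured by group, and the black line is the median of 15 libraries. Egln2 lies highest, and Tiparp, Ahr and Epas1 include libraries at or near 0.

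The members differed in how steady they were across libraries. The coefficient of variation of CPM over the 15 libraries was 0.339 for Egln2 and 0.375 for Arnt, lower than for most of the 15416 genes kept by the count filter, whose median was 0.826. It was 0.513 for Egln1, 0.577 for Hif1a and 0.71 for Hif1an, and it exceeded the median for Tiparp (0.927), Vhl (0.995), Ahr (1.53) and Epas1 (2.13). Tiparp, Ahr and Epas1 had libraries at 3 counts or fewer beside libraries with far higher counts in the same group. In a pool of 30 cells, fewer cells with a transcript and less RNA per cell cannot be told apart.

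Ahr, the ligand-binding receptor, had 0 counts in all 4 WT endosteal libraries, in which 4416648 to 14003634 reads were counted on genes. In WT central libraries A to D it had 74, 33, 15 and 58 counts, or 67.0, 10.3, 20.1 and 19.5 CPM. The Gfra2-/- endosteal libraries were split, with 2, 141, 235 and 0 counts (0.135, 7.12, 27.2 and 0 CPM). The 3 Gfra2-/- central libraries had 142, 120 and 13 counts (9.31, 11.3 and 1.67 CPM). All WT central and Gfra2-/- central libraries thus held Ahr reads, Gfra2-/- endosteal libraries did or did not, and no WT endosteal library did. A count of 0 in each WT endosteal library allows up to 3 counts over the group, or 0.0709 CPM. Against that floor Ahr was at least 316-fold higher in the pooled WT central libraries, at least 115-fold higher in Gfra2-/- central and at least 97.6-fold higher in Gfra2-/- endosteal ones. The last bound rested on library C, with 235 of the group's 378 counts, and was 43.9-fold without it. Without libraries B and D, with 5 or more Gfra2 counts each, it was 143-fold. Without WT endosteal B, the deepest of its group, the 3 bounds were 204-fold, 74.5-fold and 63.0-fold. These bounds cover counting error only. Of 46078 genes, Ahr was the 1 gene (0.00217%) with no count in any WT endosteal library and 10 or more in every WT central one, and this pattern is the one it was selected on. With the limit raised to 3 counts in the WT endosteal libraries it was still 1 gene. In the other direction 63 genes (0.137%) had 3 counts or fewer in every WT central library and 10 or more in every WT endosteal one. These limits are on raw counts, and the shallower WT central libraries reach 3 or fewer more easily and 10 or more less easily. The 2 directions are therefore not alike.

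Depth and the markers of other cell types are given beside these values. At the depth of the smallest library, the WT central libraries would hold 8.10 to 49.7 Ahr counts. Granulocyte and monocyte markers, 8 genes, summed to 4.53 to 2556 CPM in WT central and to 1.18 to 31.2 CPM in WT endosteal libraries. In WT central libraries S100a8 reached 864, S100a9 796, Ltf 504, Ngp 389 and Ly6c2 358 CPM. In WT endosteal ones any of these 5 genes reached at most 8.77 CPM. Csf1r went the other way, with up to 16.3 CPM in WT endosteal and 12.1 CPM in WT central libraries. Elane and Mpo had 3 counts or fewer per library in both groups. The summed markers were highest in WT central D and C (2556 and 378 CPM). WT central A, with the most Ahr, had the lowest sum of its group, at 4.53 CPM from 5 counts, and WT endosteal A, without Ahr reads, had 31.2 CPM. In Gfra2-/- libraries the sum was 0.757 to 8.50 CPM in endosteal and 0.328 to 218 CPM in central BM. The part of depth and of other cells in the Ahr values was not tested. The genes nearest to Ahr in rank over the 15 libraries, among 15416 genes, were Tecpr1, an autophagy factor (Spearman rho 0.83), Kmt2a, a histone methyltransferase needed by HSCs (0.83), Rbm27 (0.83), Tmcc3 (0.82) and Cactin (0.82). In WT endosteal libraries Tecpr1 was at 7.07 to 15.6 CPM and in WT central ones at 20.1 to 388 CPM. The ranks include the WT endosteal libraries, on whose lack of Ahr reads the group was selected. A gene picked for its closeness to Ahr is therefore favoured to be low in these libraries. The Tecpr1 values are a description and not a separate observation. Ahr had a rho of -0.54 with the reads on genes of the library, and depth is shared by these ranks.

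Where Ahr could be tested it did not pass. Between Gfra2-/- endosteal and Gfra2-/- central BM the edgeR log2 fold change was 0.21 (SE = 1.89, FDR = 0.999), with the groups overlapping, and it changed sign without endosteal library C (-1.61), without central library C (-0.25) with spike-in scaling (-0.49) and with the share of spike-in reads (under 0.5% or not) as a term in the fit (-1.04). Without the endosteal libraries B and D it was 0.88. Between Gfra2-/- and WT central BM it was -2.0 (SE = 1.15, FDR = 0.672, 0.337 to 0.924 over the alternatives), with means of 7.44 ± 5.10 (SD, n = 3) and 29.2 ± 25.6 CPM (SD, n = 4). The lowest WT central value, 10.3 CPM, lay below the highest Gfra2-/- central one. Without WT central A, the highest of its group, the log2 fold change was -1.19, scaling to spike-ins gave -0.53, and the libraries with more than 0.5% spike-in reads gave -1.70. The rule for printed fold changes did not select Ahr in either comparison, and its estimates were added after its values had been seen.

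Tiparp, the AHR-induced repressor of AHR, was read in libraries without Ahr reads and was almost absent from some libraries with them. In WT endosteal libraries A to D, all without Ahr reads, it had 0, 424, 650 and 72 counts (0, 28.2, 59.1 and 5.89 CPM). In WT central BM it was even, at 14.5, 14.6, 16.1 and 19.2 CPM. Gfra2-/- endosteal libraries had 34.0, 22.1, 29.3 and 0.0876 CPM, the last from 1 count. Gfra2-/- central libraries had 0.131, 0.189 and 48.8 CPM, the first 2 from 2 counts each in libraries with 142 and 120 Ahr counts. The 4 groups overlapped throughout, and no comparison gave Tiparp an unadjusted p under 0.05 or an FDR under 0.939.

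Arnt, the partner shared by AHR and the HIF alpha subunits, was read in every library, including those without Ahr and Epas1. It was at 84.6, 49.6, 46.7 and 46.6 CPM in WT endosteal BM and at 20.8, 35.1, 14.7 and 43.5 CPM in WT central BM. Gfra2-/- endosteal libraries had 45.9 to 56.7 CPM and Gfra2-/- central ones 52.3, 24.3 and 44.8 CPM. Every WT endosteal value was thus above every WT central one, with the closest libraries at 46.6 and 43.5 CPM. The rank of Arnt had a rho of -0.53 with that of Ahr, the lowest of the 36 member pairs, whose median was -0.043. This rho includes the WT endosteal libraries, on whose lack of Ahr reads the group was selected. Their Arnt values lay above the WT central ones, so the selection favours a negative rho. The value is a description with no test. Arnt had a rho of 0.61 with the reads on genes, and WT central libraries were the shallowest.

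Hif1a, the ubiquitous HIF alpha subunit, was at 35.6, 103, 80.2 and 93.7 CPM in WT endosteal and at 139, 103, 28.2 and 113 CPM in WT central libraries. Gfra2-/- endosteal libraries had 93.7, 99.5, 90.5 and 275 CPM, of which the last, library D, stood apart. Gfra2-/- central libraries had 46.0, 97.9 and 83.5 CPM. The genes nearest to Hif1a in rank were Cntrob, a centrosomal protein (rho 0.88), 2210408F21Rik (0.86) and Ctc1, a telomere maintenance factor (0.85). Among members, its highest rho was with Vhl, at 0.52.

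Epas1, the HIF alpha subunit best known from endothelium and erythropoietin-producing cells, differed most visibly between the compartments of Gfra2-/- mice. It had 163, 101 and 500 counts in Gfra2-/- central libraries (10.7, 9.55 and 64.2 CPM) and 0, 1, 0 and 0 counts in Gfra2-/- endosteal ones. In WT central libraries it had 3, 0, 7 and 4 counts, and in WT endosteal BM 81 counts in library A and 0 in B, C and D. All 3 Gfra2-/- central values lay above those of both the Gfra2-/- endosteal and the WT central group, the nearest pair being 9.55 and 9.39 CPM for the latter.

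The oxygen-dependent regulators were read in all 15 libraries. Vhl varied the most, from 1.71 to 131 CPM in WT endosteal, 17.4 to 191 in WT central, 8.52 to 59.5 in Gfra2-/- endosteal and 24.9 to 75.2 CPM in Gfra2-/- central BM. Egln1, the main prolyl hydroxylase for HIF-1α, was at 8.53 to 19.3, 9.10 to 25.8, 4.94 to 31.3 and 5.11 to 23.0 CPM in the same order. Egln2 was at 103 to 165, 108 to 264, 70.5 to 126 and 85.4 to 131 CPM. Hif1an was nearly constant in WT endosteal libraries, at 43.5 to 49.5 CPM, and spread from 22.8 to 146 CPM in WT central, from 7.62 to 107 CPM in Gfra2-/- endosteal and from 22.5 to 64.5 CPM in Gfra2-/- central BM. The 4 groups overlapped for each of these genes.

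**Figure D3:**
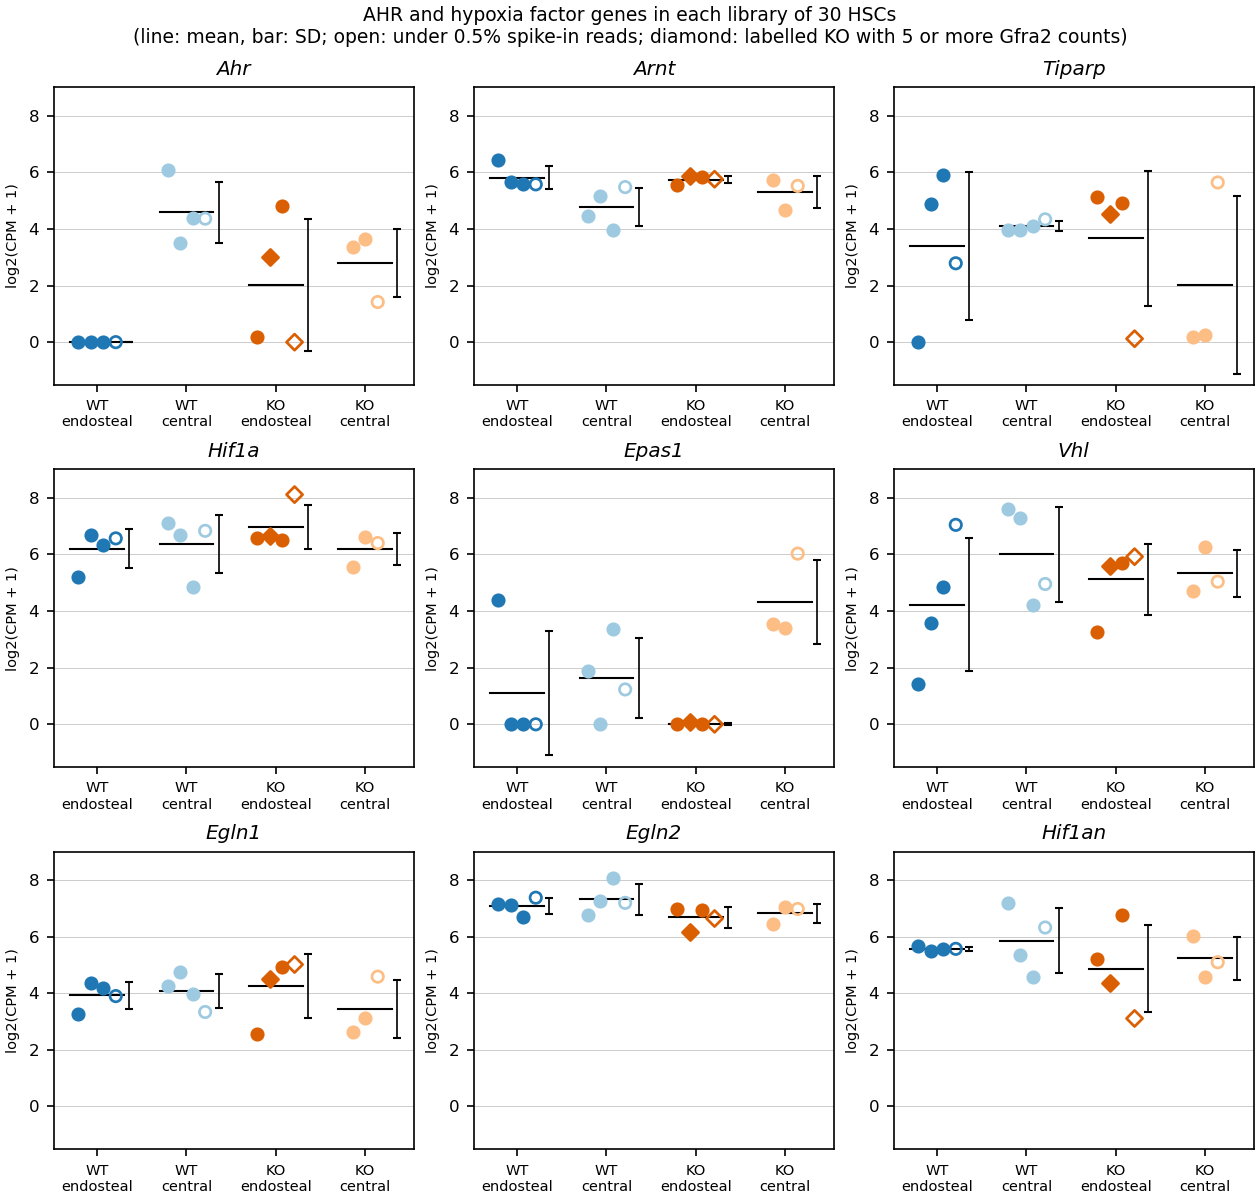
Level of each member as log2(CPM + 1) (vertical axis) in each library of 30 HSCs, by group (horizontal axis, KO for Gfra2-/-). Points are libraries, black lines means and bars SD; open symbols had under 0.5% spike-in reads and diamonds are libraries labelled Gfra2-/- with 5 or more Gfra2 counts. Ahr is at 0 in all WT endosteal libraries, and Epas1 is at or near 0 in all Gfra2-/- endosteal libraries.

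The first comparison asked how endosteal and central HSCs differ in WT mice. No tested member passed, and Ahr was not tested. Of 7 tested members 0 passed an FDR of 0.1 by edgeR, where 0% of 11181 genes did, and 0 had an unadjusted p under 0.05, against 7.89% of all genes. DESeq2 called 0 of these members as well. Arnt had the smallest p, with 56.8 ± 18.5 CPM in endosteal and 28.5 ± 13.1 CPM in central BM (SD, n = 4 each) and a log2 fold change of 0.96 (SE = 0.67, FDR = 0.755, 0.453 to 0.888 over the alternatives). In the libraries with more than 0.5% spike-in reads its log2 fold change was 1.28. Ahr, on which the group was selected, and Arnt were the 2 members whose WT groups did not overlap, and 6.36% of tested genes did not overlap either. Epas1 was removed by the filter on low counts. Of the 7 tested members, 2 had a higher and 5 a lower fitted level in endosteal BM, with a median log2 fold change of -0.30 against 0.03 for all genes. Scaling to spike-ins moved the median of all genes to 1.58 and made all 7 positive, and relative to that median Tiparp turned from higher to lower and Vhl and Egln1 from lower to higher.

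Between endosteal and central HSCs of Gfra2-/- mice, Epas1 was the 1 of 9 tested members with an unadjusted p under 0.05, against 4.79% of 13860 genes. It had 1 count in the endosteal and 764 in the central libraries, a ratio of 1242 after scaling to library size. The 95% exact counting interval was 222 to 49120. The intervals and the bound in this paragraph cover counting error only and not the spread between libraries. Epas1 passed the filter on low counts only through the central libraries, where it is high, so its p and its lack of overlap are descriptions and are not read against the shares over all genes. The edgeR FDR was 0.700, so 0 of 9 members passed, as did 0% of all genes. DESeq2 gave no adjusted p for Epas1 and called 0 members. Over the alternatives the FDR of Epas1 ran from 0.0026, with spike-in scaling, to 0.9998. Library C held 500 of the 764 central counts, and without it the ratio was 559 (interval 99.4 to 22145). Without endosteal libraries B and D, with 5 or more Gfra2 counts each, endosteal counts were 0 and Epas1 was at least 177-fold higher in central BM (FDR = 0.939). In the libraries with more than 0.5% spike-in reads the FDR was 0.942. Epas1 was also the 1 member whose groups did not overlap, against 7.34% of tested genes. Of all genes, 23 (0.0499%) had 3 counts or fewer in every Gfra2-/- endosteal library and 10 or more in every central one, and 13 (0.0282%) the reverse. The 6 endothelial markers summed to 402 to 493 CPM in central and 85.6 to 366 CPM in endosteal libraries. This sum came mostly from Vwf, Emcn and Tek, which HSCs express. Kdr, a VEGF receptor, was at 3.48 to 63.9 CPM in central and at 0 in endosteal libraries, whereas the defining endothelial gene Cdh5 was at 0 in all 15 libraries and Flt1 at 3 counts or fewer. The part of these genes in the Epas1 difference was not tested. Over the 9 members 6 had a higher and 3 a lower fitted level in endosteal BM, with a median log2 fold change of 0.21 against 0.03 for all genes. Relative to the median of all genes under spike-in scaling, -0.46, Ahr, Tiparp and Hif1an turned lower and Vhl higher.

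Central HSCs of Gfra2-/- and WT mice were compared to read the genotype away from bone. No member passed an FDR of 0.1 (0 of 9 by edgeR and 0 by DESeq2, against 0.051% of 11772 genes) or had an unadjusted p under 0.05, against 8.73% of all genes. Epas1 had the smallest p. It was at 28.1 ± 31.2 CPM in Gfra2-/- (SD, n = 3) and 3.36 ± 4.17 CPM in WT central BM (SD, n = 4), a log2 fold change of 3.17 (SE = 1.5, FDR = 0.583, 0.220 to 0.921 over the alternatives). The estimate moved with single libraries. It was 1.63 without Gfra2-/- central C and 4.47 without WT central C, while the libraries with more than 0.5% spike-in reads gave 1.36 and spike-in scaling 6.57. The 2 groups did not overlap for Epas1 alone among members, against 12.4% of tested genes. Here too Epas1 passed the filter only through the Gfra2-/- central libraries, and nothing is read from these shares. Of the 9 members 3 had a higher and 6 a lower fitted level in Gfra2-/- central BM, with a median of -0.52 against 0.03 for all genes, and the 6 lower ones became higher with spike-in scaling except Ahr, as the median of all genes moved to 1.75, while relative to that median Arnt turned lower and Egln1 higher.

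In endosteal HSCs no member passed the test between genotypes. Of 7 tested members 0 passed an FDR of 0.1 by edgeR and 0 by DESeq2, against 0% of 12970 genes by edgeR, and 0 had an unadjusted p under 0.05, against 6.69%. Hif1a had the smallest p, at 140 ± 90.5 CPM in Gfra2-/- and 78.0 ± 29.8 CPM in WT endosteal BM (SD, n = 4 each) and a log2 fold change of 0.85 (SE = 0.48, FDR = 0.779, 0.481 to 0.99997 over the alternatives). Without library D, one of those labelled Gfra2-/- with 5 or more Gfra2 counts, the log2 fold change was 0.26. Without both such libraries it was 0.23, and in the libraries with more than 0.5% spike-in reads 0.37. No member had groups that did not overlap (0 of 9, against 6.24% of tested genes). Ahr was not tested, and Epas1 was removed by the filter on low counts, having 81 counts in WT endosteal A and 1 count in the other 7 endosteal libraries.

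Whether the compartment difference itself differed between genotypes was tested as an interaction over the 15 libraries. Of 8 tested members 0 passed an FDR of 0.1 by edgeR and 0 by DESeq2, against 0% of 15416 genes by edgeR. Epas1 was the 1 member with an unadjusted p under 0.05 (FDR = 0.523), against 6.97% of all genes. Epas1 had 3 counts or fewer in 9 of the 15 libraries, and most of its counts came from the Gfra2-/- central ones. Its p is therefore a description here too and is not read against the share over all genes. This p rested on WT endosteal A, the 1 WT endosteal library with Epas1 reads. Without that library the unadjusted p was above 0.05 and the FDR 0.981. Over the alternatives the FDR ran from 0.0423, with spike-in scaling, to this value. It was 0.716 without the 2 Gfra2-/- endosteal libraries with 5 or more Gfra2 counts and 0.602 in the libraries with more than 0.5% spike-in reads.

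**Figure D4:**
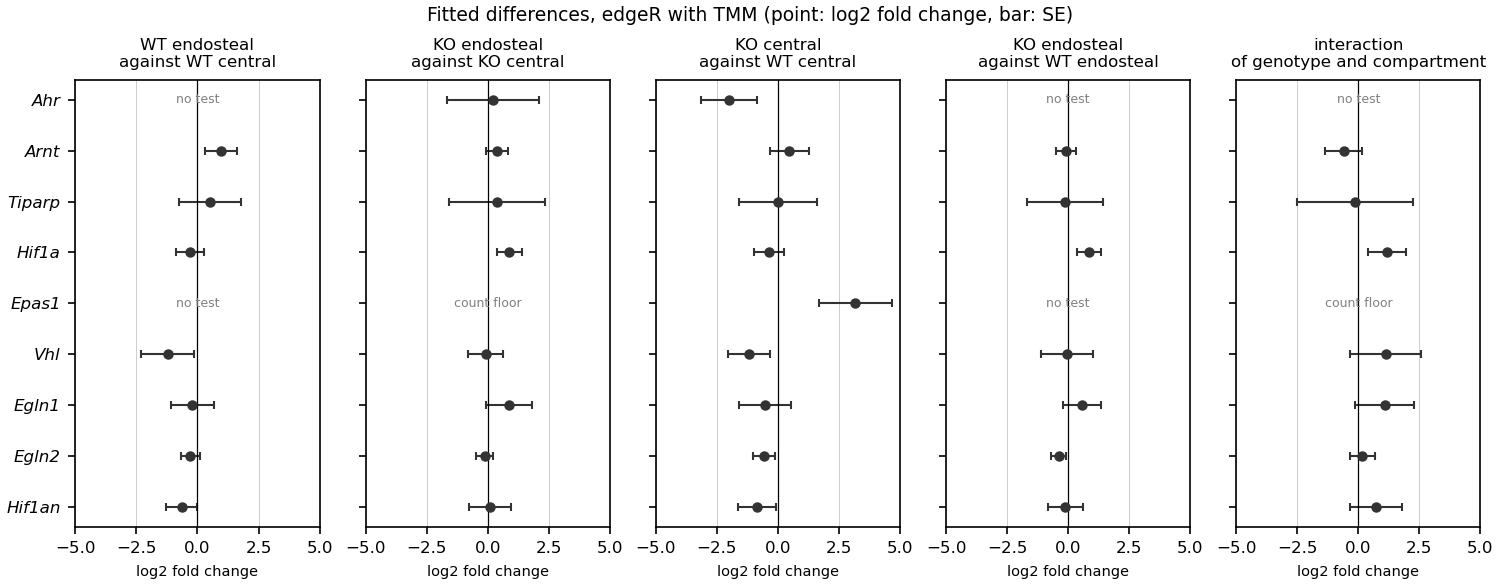
Fitted log2 fold change (horizontal axis) with its SE for each member (vertical axis) in the 5 comparisons, KO standing for Gfra2-/-. Entries marked no test are Ahr where WT endosteal libraries are in the fit and Epas1 where it was removed by the filter; entries marked count floor are Epas1 against Gfra2-/- endosteal libraries with 1 count in all. The point farthest from 0 is Epas1 in central BM, at 3.17.

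The wider pathways were read from gene lists written for this purpose. Among 12 AHR targets the classical xenobiotic enzymes had almost no counts. Cyp1a1 and Cyp1a2 had no count in any of the 15 libraries, Cyp1b1 did not exceed 0.20 CPM, and Ahrr, the AHR repressor, was above 3 counts in 1 library, in Gfra2-/- central BM at 15.2 CPM. Tiparp, Nqo1, a quinone reductase, and Nfe2l2, the antioxidant factor NRF2, were the 3 AHR targets tested in the pairwise comparisons, and 0 passed or had an unadjusted p under 0.05 in any of them. Nqo1 was at 1.47 to 20.5 CPM in WT endosteal libraries, all without Ahr reads, and at 0.905 to 62.5 CPM in WT central ones. Nfe2l2 was read in every library. Both are also controlled by other factors.

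Of 16 AHR partners and chaperones 11 had more than 3 counts in every library, and 0 of the 13 or 14 tested passed in any comparison. Hsp90ab1, the HSP90 chaperone that holds AHR in the cytoplasm, was at 2070 to 3292 CPM over all libraries. Between central groups it was at 2299 ± 66.8 CPM in Gfra2-/- and 3160 CPM in WT libraries (log2 fold change -0.48, SE = 0.16, FDR = 0.401). The co-chaperone p23, encoded by Ptges3, had a log2 fold change of -1.01 there (SE = 0.44, FDR = 0.553). These were the 2 genes of the list, of 14 tested there, with an unadjusted p under 0.05 in any comparison, against 8.73% of all genes. Arnt2, the neural paralogue of Arnt, had no count in any library, and Relb, an NF-κB subunit, had 3 counts or fewer in 6 libraries and at most 24.6 CPM.

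Of 39 HIF targets 32 to 35 were tested per comparison and 0 passed an FDR of 0.1 in any, so the glycolytic genes below are described by their values only. An unadjusted p under 0.05 was found for 3 of 32 between WT compartments (7.89% of all genes), 2 of 35 between Gfra2-/- compartments (4.79%), 6 of 32 between central groups (8.73%), 2 of 34 between endosteal groups (6.69%) and 1 of 35 for the interaction (6.97%). In WT mice, Hk2, the hexokinase that HIF-1 induces, was at 22.8 to 79.2 CPM in endosteal and 68.7 to 393 CPM in central libraries (log2 fold change -1.94, SE = 0.68, FDR = 0.508). Pfkl, liver-type phosphofructokinase, ran the other way, at 138 to 251 against 55.2 to 132 CPM with no overlap (0.91, SE = 0.42, FDR = 0.626). In Gfra2-/- mice Pfkl was again above in endosteal BM, at 195 to 356 against 137 to 179 CPM (0.72, SE = 0.28, FDR = 0.999). Hk2 had the smallest interaction p of the list (FDR = 0.537). Between central groups, Aldoa, an aldolase, had a log2 fold change of 1.13 (FDR = 0.357), and the phosphofructokinase regulator Pfkfb3 one of -2.63 (FDR = 0.372). Over the list, 15 of 32 tested genes had a higher fitted level in WT endosteal than in WT central BM, with a median log2 fold change of -0.02 against 0.03 for all genes. In the Gfra2-/- compartment comparison it was 19 of 35, with a median of 0.04 against 0.03.

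Of 28 HIF regulators listed 25 were in the table, and 0 of the 24 or 25 tested passed in any comparison. In the same order of comparisons and beside the same shares of all genes, 2 of 24, 1 of 25, 3 of 25, 4 of 25 and 0 of 25 had an unadjusted p under 0.05. Usp20, a deubiquitinase that stabilises HIF-1α, was at 17 to 28.9 CPM in Gfra2-/- central libraries and 0 to 3.03 CPM in WT central ones (log2 fold change 4.48, SE = 1.41, FDR = 0.360), and 2 of the 4 WT central libraries had no count of it, so it passed the filter through the Gfra2-/- libraries. Rack1, a ribosome-associated scaffold that promotes HIF-1α degradation, was at 1150 to 1761 CPM in Gfra2-/- endosteal and 1992 to 3648 CPM in WT endosteal libraries (-0.79, SE = 0.24, FDR = 0.689). Crebbp, the coactivator CBP, was at 245 to 311 against 126 to 212 CPM in the same groups (0.66, SE = 0.24, FDR = 0.737). In WT mice Rptor, of the mTORC1 complex, had a log2 fold change of 2.34 between endosteal and central BM (FDR = 0.584) and Eloc, elongin C of the VHL ligase, one of -1.20 (FDR = 0.594). Per comparison, 8 to 15 of the tested regulators had a positive fitted difference.

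**Figure D5:**
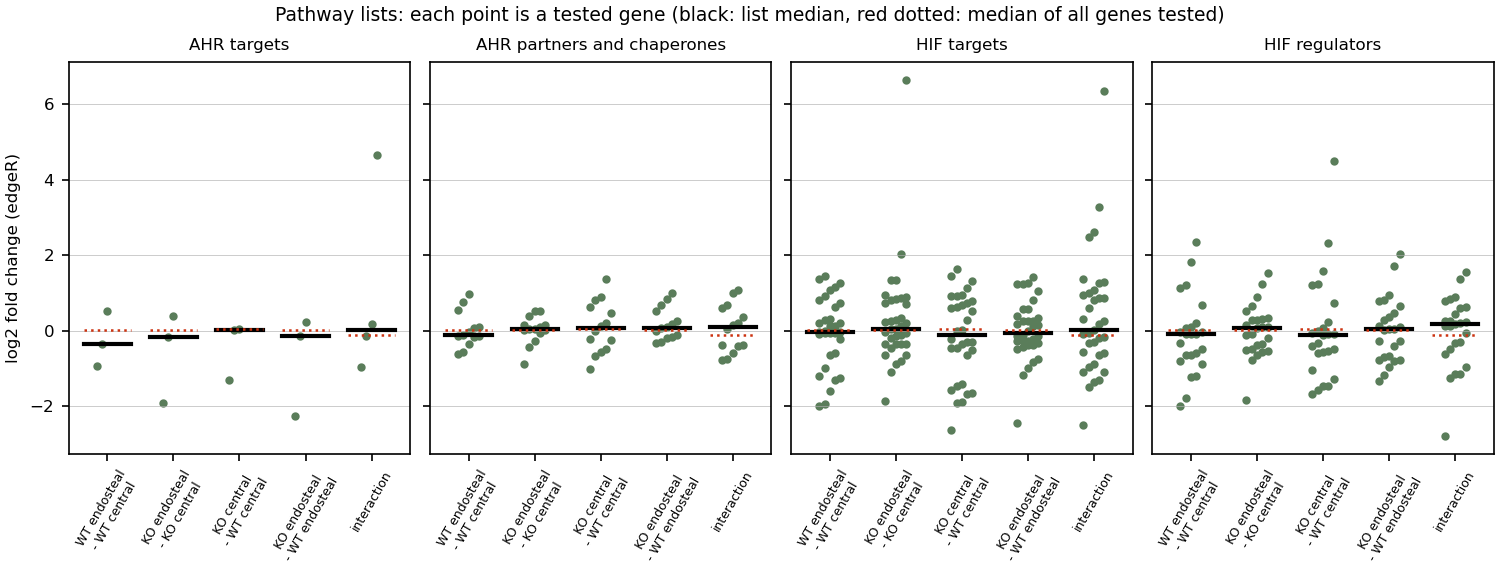
Fitted log2 fold changes (vertical axis) of the tested genes of 4 pathway lists in the 5 comparisons (horizontal axis, first group minus second, KO for Gfra2-/-). Each point is a gene, black lines are list medians and red dotted lines the median of all genes tested. List medians lie between -0.35 and 0.19.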

How the data were processed

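Pools of 30 HSCs were profiled in 15 libraries. Per the labels and the study's methods, reads (single-end) were aligned to mm10 with GSNAP and the authors deposited counts per gene from HTSeq 0.5.3p3, counted without strand. Summary categories (54.6% to 80.3% of reads) and 92 spike-in RNAs stayed out of library sizes, and 1 column that could not be tied to a group was not used. Columns were tied to groups, not to replicate numbers, by the study's sample list. Gene names came from GENCODE M21 (45229 of 46078 IDs) and promoter sequences from RefSeq.

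Each comparison was fitted on its own libraries (the interaction on all 15) with edgeR 4.0.16, filterByExpr, TMM and the quasi-likelihood test, adjusted by Benjamini-Hochberg over all genes tested, at an FDR of 0.1. CPM use TMM over 15 libraries. The fits were checked on simulated counts. Recovery of changed genes was required there only at a smaller spread than in these data, so the check does not measure detection in them. DESeq2 1.42.0, size factors, spike-in scaling, thinned counts, no filter, a common fit, the spike-in batch as a term and leaving out libraries were alternatives. Members and lists were chosen with earlier results of these data known. Named genes are all members with levels, the fold change of members with p under 0.05 or else the smallest p, up to 3 genes per list and comparison with the smallest p, and the 5 and 3 genes nearest in rank to Ahr and Hif1a. Figures were drawn with matplotlib 3.10.9.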

Additional observations from a re-analysis of the deposited data

Results flagged for a closer look

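Of 27 sets of 4 libraries examined (the 9 members in the 3 groups of 4, on log2(CPM + 1)), 6 had a library that lay far from its other 3 by Dixon's ratio, where chance alone gives about 1 in 20. That rate does not apply to the 2 Epas1 sets among them, in which 3 libraries at 0 fix the ratio at 1 for any read in the fourth. Arnt was at 84.6 CPM in WT endosteal A, against 46.6 to 49.6 CPM in the others. Epas1 was at 19.7 CPM in the same library (81 counts) and at 0 in the others. In Gfra2-/- endosteal D, Hif1a was at 275 CPM against 90.5 to 99.5 CPM, and Tiparp was at 0.0876 CPM (1 count) against 22.1 to 34.0 CPM. In Gfra2-/- endosteal A, Vhl was at 8.52 CPM against 46.9 to 59.5 CPM. In Gfra2-/- endosteal B, Epas1 was at 0.0505 CPM, which is 1 count against 0 in the others. WT endosteal A had the fewest reads of its group (4416648), and Gfra2-/- endosteal D had under 0.5% spike-in reads and 9 Gfra2 counts. Whether these features bear on the values was not tested.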

How the results depend on the processing

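No member passed an FDR of 0.1 in any comparison by edgeR with TMM, and this held under each alternative but spike-in scaling, which called 1 member, Epas1, between Gfra2-/- compartments and in the interaction. The count of all genes called varied more. Between WT compartments it was 0, and 216 with DESeq2 and 58 with no filter on low counts. There it was 22 with all 15 libraries in one fit and 4 with thinned counts. With the share of spike-in reads as a term it was 1, and with 1 library left out 0 to 6. Between Gfra2-/- compartments it was 0, and 156 with DESeq2 and 15 with spike-in scaling. Between central groups it was 6, and 371 with DESeq2, 134 with no filter, 17 with thinned counts, 2 with spike-in scaling, 1 in the libraries with more than 0.5% spike-in reads and 0 to 8 with 1 library left out. Between endosteal groups it was 0, and 132 with DESeq2, 6 with spike-in scaling and 1 in one fit. For the interaction it was 0, and 176 with DESeq2 and 193 with spike-in scaling. The cause was not tested. Of the 7 member fold changes recomputed under every alternative, that of Ahr between Gfra2-/- compartments changed sign. It was -0.49 with spike-in scaling, -1.04 with the share of spike-in reads as a term and -0.25 without central library C. Without endosteal library C it was -1.61 (0.66 at the other end of the range with 1 library left out). Over all tested members, spike-in scaling turned the sign of 5 of 7 between WT compartments, 4 of 9 between Gfra2-/- compartments, 5 of 9 between central groups, 0 of 7 between endosteal groups and 5 of 8 for the interaction, and DESeq2 size factors that of Tiparp between central groups. The share of spike-in reads as a term, added after seeing the data, called 0 members in each comparison. DESeq2 gave no adjusted p for Epas1. Depth limits the WT central libraries most, where 3 counts correspond to 0.891 to 3.63 CPM before TMM. No paired analysis was possible because nothing ties a column of the table to a replicate number.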
